A study of Mus musculus with 4 samples.

Results

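The 10 genes described here carry the FoxO atrophy programme and the autophagy machinery that it feeds: the transcription factors Foxo1 and Foxo3, the ubiquitin ligase genes Fbxo32, Trim63 and Fbxo30, and the autophagy genes Ulk1, Map1lc3b, Gabarapl1, Sqstm1 and Bnip3. They were chosen by symbol from the 23351 genes of the deposited table, and all 10 were found there. The RNA came from primary cultures labelled as satellite cells (muscle stem cells) that had been derived from one hindlimb muscle, the extensor digitorum longus, and the mice were C57BL/6 and 6 to 8 weeks old. There were 2 libraries labelled ERβ scKO, read here as a knockout of estrogen receptor β in satellite cells although the labels do not spell it out, and 2 labelled Control. The Cre driver, the floxed allele, any induction of the deletion, the genotype of the Control mice and the time in culture are not given in the sources used here, nor whether the libraries of a group came from separate animals, so p-values measure only the spread between these libraries. By its title the series concerns young female mice and the part of the receptor in muscle mass and in stem cell proliferation.

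FoxO proteins are forkhead transcription factors. When insulin or growth factor signalling is strong, AKT phosphorylates them and they leave the nucleus. When it is weak they enter the nucleus and, in muscle, switch on ubiquitin ligases that mark proteins for the proteasome and genes of autophagy, in which a double membrane closes around cytoplasm and fuses with the lysosome. In adult muscle these genes are known for their rise in fasting, denervation and disuse. FoxO activity is set largely by phosphorylation and location of the protein, which RNA levels do not measure.

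Values are FPKM (fragments scaled to transcript length in kilobases and to the number of mapped fragments), which can be compared between genes because they are per length. Differences are ERβ scKO minus Control on the log2(FPKM + 1) scale, a scale that understates changes of low genes, and means are given ± SD with n = 2 libraries per group. The spacing of low values gave about 2800000 and 2900000 fragments in ERβ scKO replicates 1 and 2, and about 2500000 and 3000000 in Control replicates 1 and 2. Control replicate 1 stood apart: 12.7% of 11201 measured genes (mean of at least 1 FPKM over the 4 libraries) were more than 1.3 times above or below all other libraries there, against 2.12%, 3.06% and 2.82% in ERβ scKO replicates 1 and 2 and Control replicate 2. For the 10 genes, and for the other genes that the naming rule picked from lists, the value without that library is given where it has the opposite sign. That rule is stated with the processing. Genes named outside it have no such value. A difference that kept its sign could still shrink much without that library, and only some such values are given. Esr2, the gene of the deleted receptor, was listed at 0 in both ERβ scKO libraries and at 0.234 and 0.202 FPKM in Control replicates 1 and 2, under the 0.302 to 0.351 FPKM that 3 fragments represent at its length, so it could not check the genotype. Over all genes limma, at an adjusted p of 0.05, called 4 of 11201: the small nucleolar RNAs Snord35a and Snora31, higher in ERβ scKO, and Snora23 and the ribosomal RNA precursor Rn45s, lower. Snord35a was at 1740 and 1739.5 FPKM and Snora31 at 191 and 374 FPKM in ERβ scKO, with both at 0 in Control. Snora23 was at 0 in ERβ scKO and at 10.2 and 9.11 FPKM in Control. As FPKM are per length, few fragments give a high value in a short RNA, and the cause of these calls was not tested.

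The cells carried markers of myoblasts and of differentiating myocytes. Pax7, a marker of satellite cells, was at 10.4 and 10.7 FPKM in ERβ scKO and at 10.7 and 10.5 FPKM in Control. Of 6 satellite cell and myoblast markers none passed the test, with a median log2 difference of −0.02; Myod1 (−0.01) and Des (−0.02) had the highest levels and Myf5 (0.08) and Cdh15 (−0.19) the widest differences. Without Control replicate 1 these were 0.14 for Myod1, 0.03 for Des, −0.25 for Myf5 and 0.03 for Cdh15. Of 8 markers of differentiating myocytes 7 had a higher mean in ERβ scKO and none passed, with a median of 0.34; Mylpf (0.37) and Acta1 (0.15) had the highest levels, and Mef2c (0.46) and Tnnt3 (0.37) the widest differences. In 7 of these 8 the lowest library was Control replicate 1. Without it Mef2c was at −0.12, Tnnt3 at −0.03 and Mylpf at 0.04, while Acta1 was at 0.16. All 6 proliferation markers had a lower mean in ERβ scKO and none passed, with Rrm2 at −0.10, Pcna at −0.13, Cdk1 at −0.28 and Top2a at −0.20. In 4 of the 6 the groups did not overlap, with ERβ scKO lower, as in 18.3% of all measured genes.

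Of the markers of other cell types, those of immune, endothelial and fat cells were low, while Acta2, Col3a1 and Rgs5 were above Pax7 in level. Summed over 6 immune markers the level was 3.04 and 1.43 FPKM in ERβ scKO and 1.68 and 1.15 FPKM in Control, with Emr1 at 0 in all 4 libraries and Cd68 at a log2 difference of 0.37. The 5 endothelial markers summed to 8.50 and 2.54 FPKM in ERβ scKO and 3.81 and 1.87 FPKM in Control, and only Emcn (0.48) reached the filter. The 7 fibroblast markers summed to 73.1 and 64.5 FPKM in ERβ scKO and 109 and 72.3 FPKM in Control, mostly Col3a1 (−0.26), with Lum and Tcf21 at 0 throughout and Pdgfra at −0.26 (0.50 without Control replicate 1). Col1a1 was at 2.09 and 1.40 FPKM in ERβ scKO and at 18.7 and 0.909 FPKM in Control, a log2 difference of −1.17 that was 0.51 without Control replicate 1. The 3 adipocyte markers came to 0.717 and 0.674 FPKM in ERβ scKO and 2.31 and 1.33 FPKM in Control, all from Fabp4 (−0.71), with Adipoq and Plin1 at 0. The 4 markers of pericytes and smooth muscle summed to 896 and 864 FPKM in ERβ scKO and 836 and 854 FPKM in Control, mostly Acta2 (0.05), which myoblasts also express. Rgs5 was at 61.4 and 55.3 FPKM in ERβ scKO and at 42.3 and 56.7 FPKM in Control (0.25), and Cspg4 had a difference of −0.22 (0.15 without Control replicate 1). The nuclear RNA Malat1 was at 141 and 166 FPKM in ERβ scKO and at 63.5 and 115 FPKM in Control, and Rn45s at 63.9 and 68.7 FPKM in ERβ scKO and at 213 and 258 FPKM in Control. Neat1, another nuclear RNA, was at 129 and 143 FPKM in ERβ scKO and at 79.7 and 90.8 FPKM in Control. In bulk RNA, fewer cells of a type and less RNA per cell cannot be told apart.

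All 10 genes were expressed above the filter in these cells and limma called no difference between ERβ scKO and Control in any of them. Limma called 0 of the 10 at an adjusted p of 0.05, where it called 0.0357% of all measured genes; their adjusted p ran from 0.837 to 0.951. At an unadjusted p under 0.05 limma had 0 of the 10, against 4.62% of all genes. The authors' deposited table held 0 of the 10 at q under 0.05 (0% of the genes tested there, smallest q 0.0589) and 0 at unadjusted p under 0.05 (3.25% of the genes tested there), with p from 0.186 to 0.860. The mean was higher in ERβ scKO for 9 of the 10 and lower for Gabarapl1, with a median log2 difference of 0.12 against −0.00 over all measured genes, of which 49.3% were higher. The groups did not overlap in 5 of the 10 (36.5% of all measured genes): the ERβ scKO libraries were the higher in 4 (18.3%) and the lower in 1 (18.3%). The 95% interval of every one of the 10 differences included 0, and with 2 libraries against 2 the smallest two-sided p of an exact permutation test is 0.333.

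**Figure D1:**
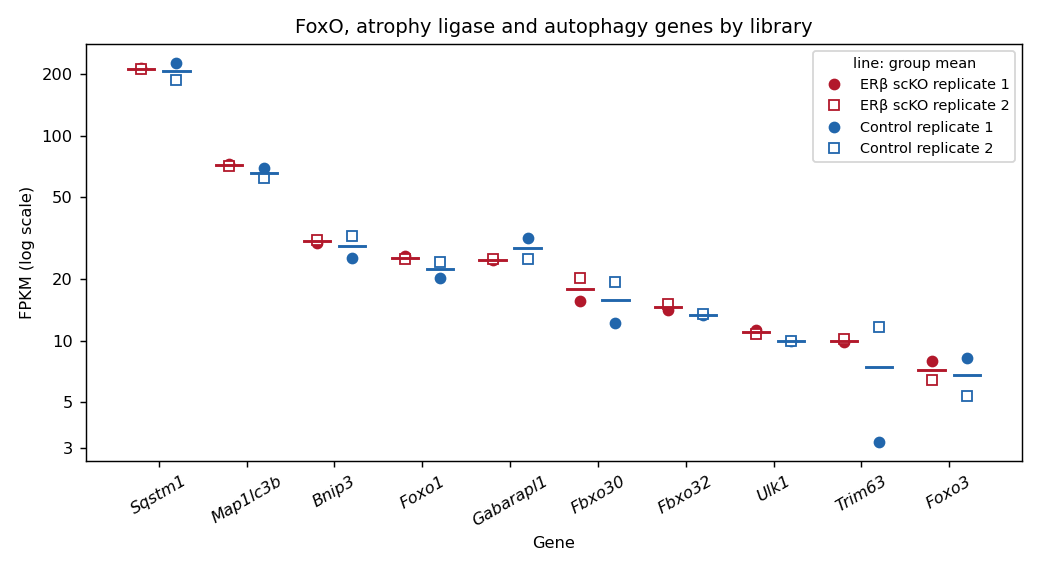
FPKM on a log axis for each of the 10 genes in each library, ERβ scKO in red left of Control in blue, with filled circles for replicate 1, open squares for replicate 2 and a line at each group mean. The group means lie close together for most genes. The widest gap within a group is that of Trim63, at 3.21 FPKM in Control replicate 1 and 11.6 FPKM in Control replicate 2. The Control libraries are also apart for Fbxo30 (12.2 and 19.2 FPKM) and Foxo3 (8.24 and 5.35 FPKM).

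Foxo1, the most abundant of the FoxO transcription factors in these cells (chromosome 3, 52268337 to 52350109 on mm10), was at 25.9 and 25.01 FPKM in ERβ scKO and at 20.2 and 24.3 FPKM in Control. The groups did not overlap, ERβ scKO being higher, but by a small margin over Control replicate 2. The group means were 25.4 ± 0.603 and 22.3 ± 2.89 FPKM, a log2 difference of 0.19 (SE 0.14, 95% interval −0.15 to 0.53), which limma did not call (adjusted p = 0.837). Taken by replicate number, the difference was 0.34 for number 1 and 0.04 for number 2, and it was 0.06 once Control replicate 1 was left out. Foxo3 (chromosome 10, 42185786 to 42276742), which in mouse muscle activates both ligase and autophagy genes, was at 7.95 and 6.41 FPKM in ERβ scKO and at 8.24 and 5.35 FPKM in Control. The groups overlapped fully, with the replicate 1 library high in each. Its log2 difference of 0.09 (SE 0.24, 95% interval −0.50 to 0.68) became −0.18 with Control replicate 2 left out and −0.05 with ERβ scKO replicate 1 left out.

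Among the FoxO factors together, Foxo1 made up 54.0% and 54.1% of the summed FPKM in ERβ scKO and 48.1% and 53.0% in Control. Foxo4 made up 27.8% and 31.2% in ERβ scKO and 31.2% and 34.4% in Control, Foxo3 16.6% and 13.9% in ERβ scKO and 19.6% and 11.7% in Control, and Foxo6 at most 1.497% in any library. The order Foxo1, Foxo4, Foxo3, Foxo6 therefore held in each of the 4 libraries. The Foxo3 share in the ERβ scKO libraries lay inside the range of the Control libraries, and the Foxo1 share above that of both Control libraries.

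The ligase genes differed from each other in how steady they were. Fbxo32, which encodes atrogin-1, the F-box protein that brings substrates to an SCF ubiquitin ligase (chromosome 15, 58175879 to 58214892), was at 14.1 and 15.1 FPKM in ERβ scKO and at 13.3 and 13.4 FPKM in Control. The groups did not overlap, ERβ scKO being higher, and the Control libraries were nearly equal. The means of 14.6 ± 0.701 and 13.4 ± 0.0849 FPKM gave a log2 difference of 0.12 (SE 0.13, 95% interval −0.22 to 0.45, adjusted p = 0.869 by limma), positive between the libraries of each replicate number (0.08 and 0.16). Fbxo30, which encodes MUSA1, an F-box protein known in mouse muscle for its rise when BMP signalling is blocked (chromosome 10, 11281330 to 11297969), was at 15.5 and 20.3 FPKM in ERβ scKO and at 12.2 and 19.2 FPKM in Control. Replicate 2 was the high library in both groups and the groups overlapped. Its log2 difference of 0.20 (SE 0.25, 95% interval −0.41 to 0.80) was 0.32 and 0.07 between the libraries of replicate numbers 1 and 2, and −0.11 without Control replicate 1.

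Trim63, which encodes MuRF1, a RING ligase that binds the sarcomere and marks thick filament proteins (chromosome 4, 134315120 to 134329629), had the widest spread of the 10. It was at 9.84 and 10.2 FPKM in ERβ scKO and at 3.21 and 11.6 FPKM in Control. The Control libraries thus stood on either side of both ERβ scKO libraries. Taking the longest annotated transcript of 1886 bases, these values correspond to about 51 and 56 fragments in ERβ scKO and about 15 and 65 in Control. Counting error alone gives 95% intervals (exact Poisson) of 1.79 to 5.29 FPKM for Control replicate 1 and 8.96 to 14.8 FPKM for Control replicate 2. At the estimated depths, the gap within Control is thus wider than counting error. The means were 9.9997 ± 0.220 FPKM in ERβ scKO and 7.41 ± 5.94 FPKM in Control, a log2 difference of 0.60 (SE 0.49, 95% interval −0.62 to 1.81, adjusted p = 0.844 by limma), a size that 3.11% of all measured genes exceeded in either direction. For replicate number 1 it was 1.37 and for number 2 it was −0.18; with Control replicate 1 left out it was −0.20, so its sign rested on that library.

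The library with low Trim63 was also the one with low myocyte markers. Myog, the factor that drives myoblast differentiation, was at 623 and 660 FPKM in ERβ scKO and at 494 and 621 FPKM in Control. Mef2c, a partner of the myogenic factors, was at 17.1 and 22.5 FPKM in ERβ scKO and at 9.06 and 21.5 FPKM in Control. Mylpf, a fast myosin light chain gene, was at 1979 and 2399 FPKM in ERβ scKO and at 1334 and 2126 FPKM in Control. In each of these Control replicate 1 was the lowest library, as for Trim63, and the part of differentiation in the Trim63 values was not tested. Of the related genes, Trim55 was also lowest in Control replicate 1, at 51.0 and 58.6 FPKM in ERβ scKO and 36.0 and 59.2 FPKM in Control. Control replicate 2 was its highest library, so a higher mean in ERβ scKO rested on Control replicate 1. Trim54 was not lowest there, at 10.2 and 14.2 FPKM in ERβ scKO and 9.41 and 8.81 FPKM in Control. Trim55 made up 71.8% and 70.6% of the FPKM of the 3 genes in ERβ scKO and 74.1% and 74.4% in Control, and Trim63 made up 13.9% and 12.2% in ERβ scKO and 6.59% and 14.6% in Control. By root mean square distance between centred log2(FPKM + 1) values over the 4 libraries, the 3 of 8437 genes most like Trim63 were Airn (0.05), an RNA antisense to Igf2r whose reads may be mixed with those of that gene if strand was not counted, Tceal7 (0.10) and Lrif1 (0.10). Tceal7, for one, was at 13.9 and 16.6 FPKM in ERβ scKO and at 5.93 and 18.1 FPKM in Control.

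**Figure D2:**
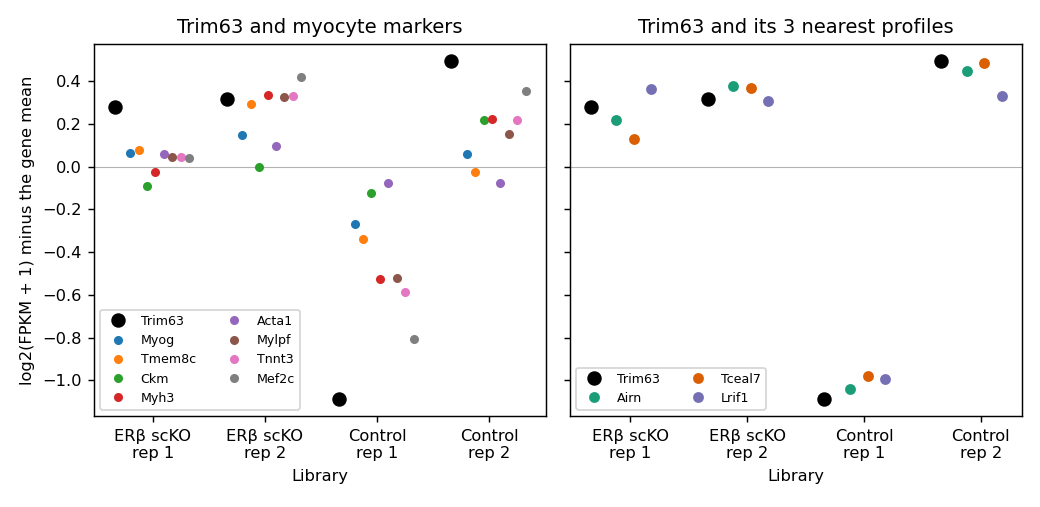
log2(FPKM + 1) minus each gene's mean over the 4 libraries, shown by library for Trim63 (large black points) with 8 myocyte markers on the left and with its 3 nearest profiles on the right. Trim63 and 7 of the 8 markers have their lowest value in Control replicate 1, while Acta1 is about equal in both Control libraries.

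Of the 9 genes with a promoter window, Trim63 was the one whose window held the FoxO core element as the exact letters GTAAACA. Variants of these letters were not searched for. The windows of Gabarapl1 and Fbxo30 lie within the spans given for these genes, so the sequence before those spans was not searched. RefSeq windows (GRCm38.p6, 250 bases before to 50 after the start) were searched for all of the 10 but Fbxo32, on both strands, for GTAAACA (the FoxO core element), TCACGTGA (the CLEAR core bound by TFEB, an activator of lysosome genes) and the palindromic estrogen response element (GGTCA, 3 bases of any kind, TGACC). The FoxO core was in 1 of the 9, against 3.65% of 32851 windows of all genes, and neither other motif was in any of the 9 (0.974% and 0.07% of all windows). The 250 bases before the start of Trim63, chr4:134314870-134315119 on the plus strand, are shown because this window held the match. Capitals mark the core on the opposite strand, which begins 194 bases before the start. A match is a description of the sequence and not a measured site.
Trim63: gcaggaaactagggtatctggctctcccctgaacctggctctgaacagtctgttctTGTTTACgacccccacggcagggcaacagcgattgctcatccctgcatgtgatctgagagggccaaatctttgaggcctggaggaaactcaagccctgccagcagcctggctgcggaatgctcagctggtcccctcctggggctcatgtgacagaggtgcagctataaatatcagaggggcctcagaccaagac

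Of the autophagy genes, Ulk1, the kinase that starts autophagy and is activated by AMPK and held back by mTOR (chromosome 5, 110784489 to 110810081), was at 11.3 and 10.8 FPKM in ERβ scKO and at 10.02 and 9.95 FPKM in Control. The groups did not overlap, ERβ scKO being higher, and the libraries of each group lay close together. The means of 11.1 ± 0.321 and 9.99 ± 0.0462 FPKM gave a log2 difference of 0.14 (SE 0.14, 95% interval −0.21 to 0.49, adjusted p = 0.851 by limma), with 0.16 and 0.11 between the libraries of replicate numbers 1 and 2. Ulk1 held 60.1% and 52.7% of the summed FPKM of Ulk1 and Ulk2 in ERβ scKO and 59.0% and 60.5% in Control. Ulk2 itself was at 7.48 and 9.71 FPKM in ERβ scKO and at 6.97 and 6.51 FPKM in Control.

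Map1lc3b, whose product LC3B is joined to lipid on the growing autophagosome (chromosome 8, 121590468 to 121598047), was at 72.5 and 70.9 FPKM in ERβ scKO and at 69.4 and 62.3 FPKM in Control. The groups did not overlap, ERβ scKO being higher. The log2 difference was 0.12 (SE 0.11, 95% interval −0.15 to 0.39, adjusted p = 0.846 by limma), the narrowest interval of the 10. It was 0.20 with Control replicate 1 left out and 0.046 with Control replicate 2 left out, and 0.06 and 0.18 for replicate numbers 1 and 2 taken alone. Gabarapl1, a relative of LC3 that is lipidated in the same way (chromosome 6, 129532184 to 129542331), was at 24.7 and 24.9 FPKM in ERβ scKO and at 31.8 and 25.04 FPKM in Control. It was the one gene of the 10 with a lower mean in ERβ scKO, with both libraries below both Control libraries, but Control replicate 2 was nearly level with them. Its log2 difference of −0.18 (SE 0.15, 95% interval −0.55 to 0.19, adjusted p = 0.846 by limma) was −0.35 for replicate number 1, −0.01 for number 2, and −0.01 with Control replicate 1 left out.

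Gabarap, which was not among the 10, was the most abundant gene of the LC3 and GABARAP family. It was at 197 and 181 FPKM in ERβ scKO and at 145 and 172 FPKM in Control, or 51.2% and 47.5% of the family's FPKM in ERβ scKO and 41.9% and 48.1% in Control. Map1lc3b made up 18.9% and 18.6% in ERβ scKO and 20.02% and 17.4% in Control, Gabarapl2 18.8% and 23.1% in ERβ scKO and 22.2% and 22.4% in Control. The smallest shares were those of Gabarapl1, at 6.43% and 6.52% in ERβ scKO and 9.17% and 6.99% in Control, and Map1lc3a, at 4.63% and 4.37% in ERβ scKO and 6.69% and 5.13% in Control. For Map1lc3a and Gabarapl1 both ERβ scKO shares lay below both Control shares, with Control replicate 1 the highest library.

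Sqstm1, which encodes p62, the receptor that tethers ubiquitinated cargo to LC3 (chromosome 11, 50200152 to 50210790), had the highest level of the 10, at 214 and 211 FPKM in ERβ scKO and at 227 and 188 FPKM in Control. The ERβ scKO libraries lay between the Control libraries. Its log2 difference of 0.04 (SE 0.12, 95% interval −0.25 to 0.34, adjusted p = 0.951 by limma) became −0.09 with Control replicate 2 left out and 0.17 with Control replicate 1 left out. Bnip3, a receptor on the outer mitochondrial membrane that draws mitochondria into autophagosomes (chromosome 7, 138890836 to 138909506), was at 30.035 and 31.2 FPKM in ERβ scKO and at 25.4 and 32.5 FPKM in Control. Here too the ERβ scKO libraries lay between the Control libraries, and the log2 difference of 0.09 (SE 0.15, 95% interval −0.29 to 0.46) became −0.08 without Control replicate 1. Its relative Bnip3l was expressed at a like level: Bnip3 held 48.8% and 46.4% of the FPKM of the pair in ERβ scKO and 48.4% and 48.8% in Control.

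**Figure D3:**
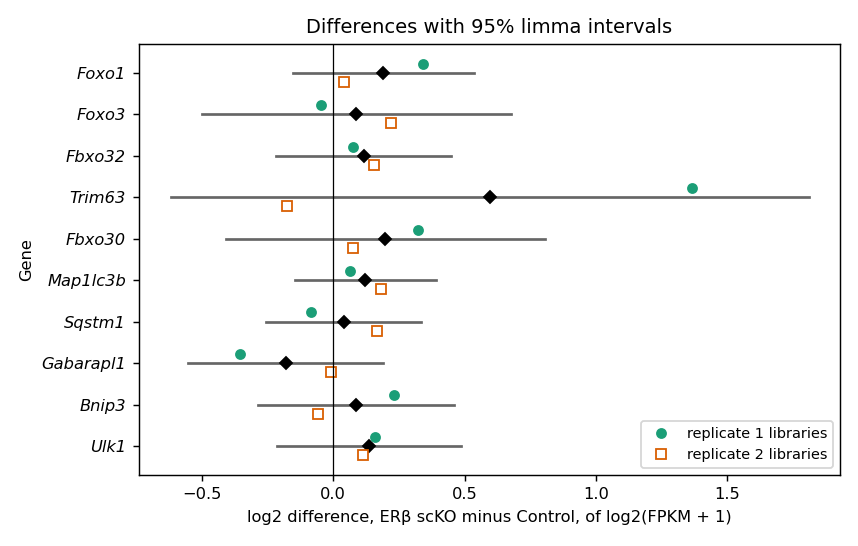
Log2 differences, ERβ scKO minus Control, of log2(FPKM + 1) for the 10 genes: black diamonds with 95% limma intervals over all 4 libraries, green circles between the replicate 1 libraries and open orange squares between the replicate 2 libraries. Every interval crosses 0, and the circle and the square lie on opposite sides of 0 for Foxo3, Trim63, Sqstm1 and Bnip3.

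Ranked by level, Sqstm1 came first and Map1lc3b second in both groups, and Foxo3 was last. In ERβ scKO the order was Sqstm1, Map1lc3b, Bnip3, Foxo1, Gabarapl1, Fbxo30, Fbxo32, Ulk1, Trim63 and Foxo3, and no neighbours overlapped in their library values. In Control Gabarapl1 stood above Foxo1 and the rest of the order was the same, but 4 pairs of neighbours overlapped: Bnip3 with Gabarapl1, Fbxo30 with Fbxo32, Ulk1 with Trim63 and Trim63 with Foxo3. Sqstm1 was above 96.7% of measured genes in ERβ scKO and 96.5% in Control, and Foxo3 above 33.5% in ERβ scKO and 32.0% in Control. The 10 genes thus covered the lower middle to the top of the expressed range.

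The 10 genes were also closer between the ERβ scKO libraries than between the Control libraries. The median log2 gap between the libraries of a group was 0.05 in ERβ scKO and 0.30 in Control for these genes, against 0.14 in ERβ scKO and 0.22 in Control for all measured genes. The Control libraries were the further apart for 8 of the 10, and for 64.7% of all measured genes. The exceptions were Fbxo32 and Ulk1, whose Control libraries differed by 0.01 on the log2 scale. Control replicate 1, the library that stood apart, is one side of every Control gap, and its part in this difference was not tested.

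Around these genes, 169 others of the pathway were listed and 162 measured. None was called by limma. An unadjusted limma p under 0.05 was found for 10 (4.62% of all measured genes had one), and an unadjusted p under 0.05 in the authors' deposited table for 3 (3.25% of all genes tested there). Their median log2 difference was 0.04, with 99 higher and 63 lower in ERβ scKO. The groups were apart with ERβ scKO higher in 26.5% of them and with ERβ scKO lower in 8.02%, against 18.3% of all measured genes for each direction. The lists were chosen with earlier results of these data known.

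Upstream lie the genes that restrain or activate FoxO. Of 22 measured genes of insulin, AKT, AMPK and mTOR signalling 14 were higher and 8 lower in mean, none passed, and the median was 0.05. Akt1, a kinase that phosphorylates FoxO, had the highest level and was at 109 and 94.3 FPKM in ERβ scKO and at 156 and 110 FPKM in Control, a log2 difference of −0.37 (SE 0.19, adjusted p = 0.837 by limma). Akt2 had −0.10 and Prkaa2, a catalytic subunit of AMPK, 0.40. Without Control replicate 1 Akt1 was at −0.11, Prkaa2 at 0.11 and Akt2 at −0.17. Of 5 measured factors of the FoxO, FOXK and TFEB families none passed, and the median was −0.03. Foxk2 (−0.03), Tfe3 (0.03), Foxo4 (−0.05) and the low Mitf (0.54) are those the rule named. Without Control replicate 1 Foxk2 was at 0.01 and Tfe3 at −0.08. Tfeb itself was under the filter, at 0.321 and 0.603 FPKM in ERβ scKO and at 0 and 0.601 FPKM in Control, as was Foxo6.

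Other targets of FoxO, outside the ligases and autophagy, had a median of 0.07 over 15 measured genes, 12 of them higher and 3 lower in mean and none past the test. The groups were apart with ERβ scKO higher in 5 and lower in 1, against 18.3% of all measured genes for each direction. Txnip, which binds thioredoxin and limits glucose uptake, was at 5.78 and 5.90 FPKM in ERβ scKO and at 4.19 and 3.49 FPKM in Control (log2 difference 0.50, SE 0.18, adjusted p = 0.837 by limma). Gadd45a, a stress gene, was at 58.3 and 70.4 FPKM in ERβ scKO and at 31.9 and 63.8 FPKM in Control (0.49), a difference of 0.0063 without the low Control replicate 1. Cited2 (0.20) and Eif4ebp1 (−0.26), a repressor of translation initiation, had the highest levels. Klf15 and Igfbp1 were listed at 0 in all 4 libraries.

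On the degradation side, 25 measured ubiquitin ligase and ubiquitin genes of muscle had a median of −0.01, with 11 higher and 14 lower and none past the test. Mdm2, the ligase of p53, was at 156 and 171 FPKM in ERβ scKO and at 116 and 110 FPKM in Control (log2 difference 0.53, SE 0.10, adjusted p = 0.837 by limma). Fbxo21, which encodes an F-box protein induced in mouse muscle atrophy, was at 7.41 and 6.61 FPKM in ERβ scKO and at 9.92 and 9.73 FPKM in Control (−0.44, SE 0.16, adjusted p = 0.837). Nedd4 (−0.05) and the ubiquitin gene Ubb (−0.01, and 0.12 without Control replicate 1) had the highest levels. The 32 proteasome subunits had a median of 0.02, with differences from −0.25 (Psmd3) to 0.23 (Psmc6), and Psmb7 (0.04) and Psma2 (0.06, and −0.00023 without Control replicate 1) at the highest levels. None passed, and the groups were apart in 5 (36.5% of all measured genes were), with ERβ scKO higher in 3 and lower in 2.

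Within autophagy, the 17 initiation and nucleation genes had a median of −0.01, 8 higher and 9 lower, with Becn1 (0.17) and Vmp1 (0.03) highest in level and Ulk2 (0.30) and Pik3r4 (−0.27) widest in difference. The 13 genes of LC3 and GABARAP conjugation had a median of 0.05, 9 higher and 4 lower, with Gabarap (0.25), Gabarapl2 (0.02) and Atg10 (0.51), an enzyme that helps join ATG12 to ATG5, as the named genes. The 12 measured receptors of autophagy and mitophagy had a median of 0.13, 7 higher and 5 lower, with Phb2 at −0.07, Fundc1 at 0.29 and Tax1bp1 at 0.35. None of these genes passed the test. Without Control replicate 1 Vmp1 was at −0.09, Gabarapl2 at −0.0084, Phb2 at 0.14 and Fundc1 at −0.0044.

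Autophagosomes end in the lysosome, and none of the 21 lysosome genes was called by limma; 4 had an unadjusted limma p under 0.05 (4.62% of all measured genes did) and 1 an unadjusted p under 0.05 in the authors' deposited table (3.25% of all genes tested there). In mean log2 level 18 were higher and 3 lower in ERβ scKO, with a median log2 difference of 0.19 against −0.00 over all measured genes. The groups were apart with ERβ scKO higher in 12 of 21 (57.1%, against 18.3% of all measured genes) and with ERβ scKO lower in 0. The list was chosen with earlier results of these data known, so this share is a description only. Ctsd, the main aspartic protease of the lysosome, was at 457 and 450 FPKM in ERβ scKO and at 358 and 316 FPKM in Control (log2 difference 0.43, SE 0.10, 95% interval 0.18 to 0.69, adjusted p = 0.837 by limma). Tpp1, a lysosomal peptidase, was at 31.5 and 32.1 FPKM in ERβ scKO and at 22.5 and 25.6 FPKM in Control (0.39, SE 0.12, adjusted p = 0.837). Cd63, a membrane protein of late endosomes, had the highest level (0.07). The median was 0.30 with Control replicate 1 left out and 0.13 with Control replicate 2 left out, and 0.11 and 0.26 for replicate numbers 1 and 2 taken alone. Malat1 (0.83, adjusted p = 0.837 by limma) and Neat1 (0.67, adjusted p = 0.837) also had a higher mean in ERβ scKO, Rn45s fell (−1.81, adjusted p = 0.0300 by limma), and 7 of 8 myocyte markers had a higher mean, with a median of 0.34. The summed immune markers, whose cells are rich in lysosomes, were at 3.04 and 1.43 FPKM in ERβ scKO and 1.68 and 1.15 FPKM in Control; the part of any of these in the lysosome values was not tested.

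**Figure D4:**
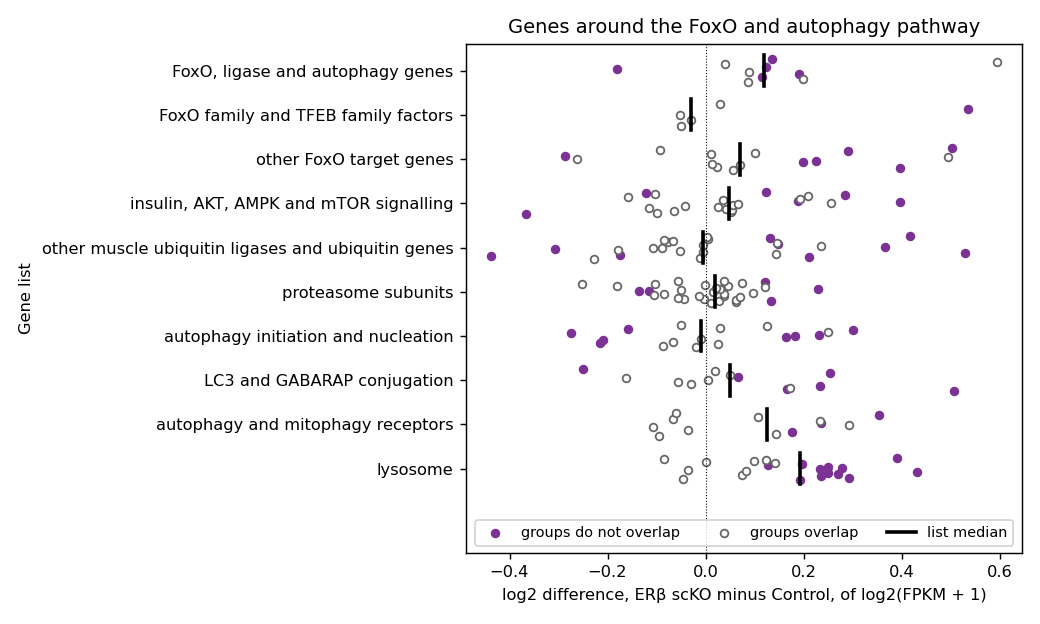
Log2 difference, ERβ scKO minus Control, of log2(FPKM + 1) for each measured gene of each list, with filled points where the libraries of the groups do not overlap, open points where they do, and a bar at the list median. The lysosome row has 12 filled points, all right of 0, while the proteasome row has 5 and centres near 0.

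The CLEAR core was in the windows of 6 of the 16 lysosome genes with one, Atp6v0d1, Atp6v0e, Atp6v1a, Ctsa, Ctsd and Mcoln1, against 1.12% of 27025 genes and none of the 9 above. A high share is a known trait of lysosome genes, so it describes the list and not the values measured here. The part of TFEB in those values was not tested. None of these genes was called. Atp6v1a, a subunit of the proton pump, was at 45.4 and 44.6 FPKM in ERβ scKO and at 36.9 and 36.2 FPKM in Control. Atp6v0e was at 111 and 110 FPKM in ERβ scKO and at 132 and 99.1 FPKM in Control. Its ERβ scKO libraries lay between the Control libraries, and its lower mean in ERβ scKO rested on Control replicate 1. The stretches are shown for Ctsd, with the widest difference of the list, and for Atp6v1a and Atp6v0e, with the core in capitals, at chr7:142387908-142387937 on the minus strand, chr16:44139373-44139402 on the minus strand and chr17:26676387-26676416 on the plus strand (GRCm38.p6, RefSeq).
Ctsd: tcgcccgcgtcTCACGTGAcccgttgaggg
Atp6v1a: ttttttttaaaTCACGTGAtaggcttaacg
Atp6v0e: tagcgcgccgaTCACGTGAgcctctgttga

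**Figure D5:**
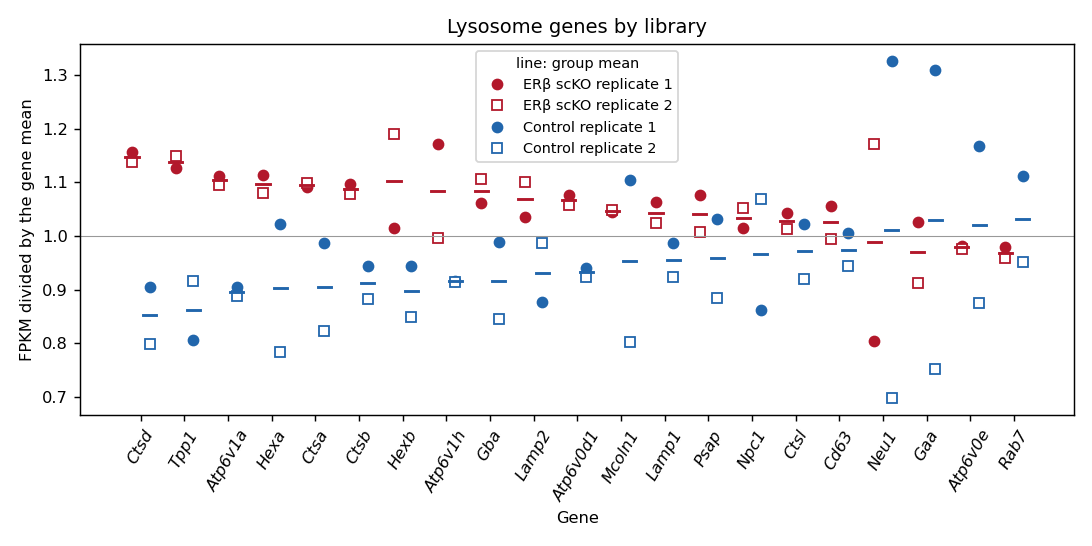
FPKM of each of the 21 lysosome genes divided by that gene's mean over the 4 libraries, ERβ scKO in red left of Control in blue, with filled circles for replicate 1, open squares for replicate 2 and a line at each group mean, ordered by log2 difference. For the 12 genes whose groups do not overlap both red points lie above both blue points, and for the 4 rightmost genes, from Neu1 on, the ERβ scKO mean is the lower.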

How the data were processed

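The 4 libraries were made with a TruSeq Stranded mRNA kit, per the labels' protocols. The submitters' processing notes name TopHat, Cufflinks and the mm10 genome; versions, annotation and strand setting are not given in the sources used here. The deposited table holds the authors' FPKM per gene and library, their group means, their log2 fold change, a test statistic (a score, not used) and, for each gene, the p-value and the q-value of their test, in columns of a Cuffdiff gene table. FPKM are not counts, so limma 3.58.1 (R 4.3.3) was run on log2(FPKM + 1) with a variance trend over the 11201 genes averaging 1 FPKM or more, and p-values were adjusted by Benjamini-Hochberg. The SEs and intervals draw each gene's variance toward that trend, so they are not the spread of that gene's libraries alone. The procedure was tested on simulated data. The changes set there were larger than any difference of the 10 genes, so that test gives no measure of power at the sizes seen here. Fragments were estimated from the steps of low FPKM in genes with 1 GENCODE M21 transcript, and their intervals cover counting error only. The chosen depths had fit scores of 0.642 to 0.691 over the libraries, and the next best depths 0.603 to 0.653. The fragment numbers are therefore rough, and the intervals do not cover that. The 10 genes and all lists were chosen with earlier results of these data known. Of each list the text names genes past the test, the 2 with the highest mean FPKM and the 2 with the widest log2 difference; the nearest profiles to the gene with the widest range over libraries were sought among genes of at least 5 FPKM. Any further gene was picked with its values in view. Alternatives were pseudocounts of 0.1 and 5, other filters, scaling, no trend, replicate number as a block, each library left out, the libraries of each replicate number alone and the authors' own test. The result of one further marker list is not reported here.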

Additional observations from a re-analysis of the deposited data

How the results depend on the processing

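None of the 10 genes was called by limma under any alternative run, or in the authors' deposited table. Of 150 recomputed differences of the 10 genes, 140 kept their direction and 10 reversed, in 5 genes, all when libraries were left out or taken by replicate number. Between the replicate 1 libraries Foxo3 (−0.045) and Sqstm1 (−0.085) reversed, and between the replicate 2 libraries Trim63 (−0.18) and Bnip3 (−0.058). With each library left out in turn the differences ran from −0.18 to 0.36 for Foxo3, −0.20 to 1.39 for Trim63, −0.11 to 0.50 for Fbxo30, −0.093 to 0.17 for Sqstm1 and −0.084 to 0.26 for Bnip3; the cause was not tested. The median over the 10 stayed between 0.09 and 0.13, and that of the lysosome genes between 0.11 and 0.30. Over all genes limma called 4, 2 with no filter, 7 to 11 with each library left out, and 518 at unadjusted p; the authors' table held 0 by q and 306 by unadjusted p. The labels give the replicate 1 libraries of both groups a shared number, and the replicate 2 libraries a different shared number. What these numbers mark, such as a litter or day, is not said, so a pairing is possible. The main fit did not pair the libraries. Replicate 1 minus replicate 2 correlated between the groups at r = 0.211 across 11201 genes. With replicate number as a block limma called 6 genes and 0 of the 10. At about 15 to 65 fragments Trim63 had the fewest of the 10. With 2 libraries per group, limma did not tell differences of the size seen in the 10 genes from the spread it estimated.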
